A study of Homo sapiens with 12 samples.

Results

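AGS and MKN74 are human gastric cancer cell lines that differ widely in the genes they express. The comparison described here is MKN74 minus AGS between the 2 libraries labelled for the transcription factor ONECUT2, and its question is whether the lines were more alike there than in their controls. Each line gave 1 control library and 1 ONECUT2 overexpression library, so every group (AGS control, AGS ONECUT2 overexpression, MKN74 control, MKN74 ONECUT2 overexpression) has 1 library and no difference below has a replicate check or a test. Genes entered by 1 rule: a gene symbol and a mean of at least 1 CPM (reads of the gene per 1000000 reads of the library) over the 2 overexpression libraries. Of 13091 genes with a symbol, 12416 passed. The gene just inside the limit was SNORA62, at a mean of 1.00 CPM, and the gene just outside was REP15, at 0.999 CPM. The labels name the line and the transgene. Neither they nor the other sources used here give the vector, the delivery, the duration, or whether the cells were 1 clone or a pool.

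ONECUT2 belongs to the ONECUT (hepatocyte nuclear factor 6) family, whose members bind DNA through a cut domain and a homeodomain and act in the development of endodermal organs. AGS comes from a gastric adenocarcinoma and MKN74 from a tubular gastric adenocarcinoma. A pair of general pathways recurs in the results. In the interferon response, signals from the interferon receptor act on the interferon-stimulated response element and switch on antiviral genes of the IFIT, OAS and IFI families. In the amino acid and unfolded protein stress response, ATF4 binds the amino acid response element of genes for amino acid synthesis and transport such as ASNS and PSAT1.

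The deposited values were log2(CPM + 1), and whole reads could be recovered from them: 36097456 to 38110453 per library. ONECUT2 itself stood at 4.39 CPM in the AGS control and 5.14 CPM in the MKN74 control. It stood at 18.3 CPM in the AGS ONECUT2 library and 57.6 CPM in the MKN74 ONECUT2 library. The ONECUT2 level of both overexpression libraries was therefore above that of both controls, and ONECUT2 was itself one of the line differences that appeared, at 1.6 log2 units against 0.19 in the controls. The dose of ONECUT2 differed between the lines, and its part in the results below was not tested. All 7 epithelial markers had rows, although CDH1 (E-cadherin) was at 7.63 and 8.74 CPM in AGS against 211 and 284 CPM in MKN74. Of 16 immune markers 3 had rows, LYZ, CD68 and CSF1R. Their summed level was 7670 CPM in the AGS control, 7079 in AGS ONECUT2, 8.57 in the MKN74 control and 13.7 in MKN74 ONECUT2, and in AGS nearly all of it was LYZ (lysozyme), which gastric epithelium also makes. Of 15 fibroblast and endothelial markers 3 had rows, COL1A1, PDGFRA and ACTA2, and their sum ran from 7.25 CPM in the MKN74 control to 66.6 CPM in the AGS control.

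Across all genes the lines were not more alike in the overexpression libraries. The count of genes at least 2-fold apart (an absolute difference of at least 1 on the log2(CPM + 1) scale) was 4110 between the overexpression libraries, or 33.1% of the 12416. It was 3757 between the controls, or 30.3%. The median absolute line difference was 0.65 log2 units in overexpression and 0.60 in controls, and 53.9% of genes had the larger absolute difference in overexpression. Over genes, Pearson's r between the lines was 0.738 in overexpression and 0.763 in controls, and Spearman's rho 0.784 and 0.800. The standard deviation of the line difference hardly moved, at 1.55 against 1.54 log2 units, and the sign of that small difference depended on the pseudocount and the filter. At the 4-fold level the counts were 1642 and 1537. The line differences of the 2 arms resembled each other over genes (r = 0.901), and 83.9% of genes kept the sign of their difference.

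The direction of the difference was also counted. In overexpression, 1870 genes (15.1%) were at least 2-fold higher in MKN74 and 2240 (18%) in AGS. In the controls the counts were 1755 (14.1%) and 2002 (16.1%). AGS-high genes outnumbered MKN74-high genes in both arms, but this order turned over when the libraries were shifted to a common median, with 2133 MKN74-high and 2028 AGS-high genes in overexpression and 1939 and 1841 in controls.

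The 4 libraries form 4 pairs across lines, and the pairs that hold the AGS ONECUT2 library were the distant ones. AGS ONECUT2 differed at least 2-fold from the MKN74 control in 4282 genes (r = 0.735). The AGS control differed from MKN74 ONECUT2 in 3697 genes (r = 0.764), fewer than the 3757 of the control pair. The larger distance in overexpression thus held with the AGS ONECUT2 library and not when the AGS control took its place. Within a line, the overexpression and control libraries differed at least 2-fold in 562 genes in AGS and 532 in MKN74. Split into 4 equal bins by mean expression, the number of genes apart was higher in overexpression in every bin, though nearly equal in the second. From controls to overexpression it was 1358 and 1518 in the lowest bin, 973 and 984 in the second, and 713 and 822 in the highest.

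**Figure D1:**
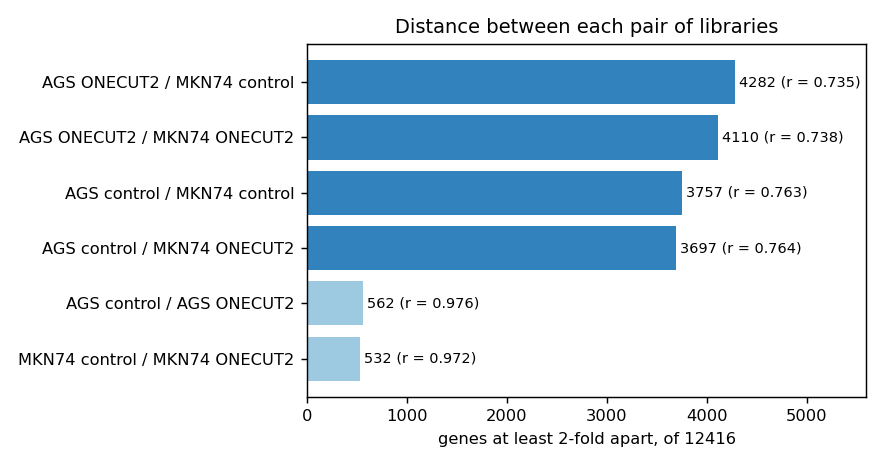
Number of genes at least 2-fold apart for each pair of the 4 libraries, with Pearson's r over the 12416 genes beside each bar. The 2 bars that hold the AGS ONECUT2 library and an MKN74 library, at 4282 and 4110 genes, are longer than those with the AGS control, at 3757 and 3697.

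Gene by gene, most differences were carried over from the controls. Of the genes at least 2-fold apart in the controls, 2895 were also apart in the same direction in overexpression, which is 77.1% of the control differences and 70.4% of the overexpression differences. These kept differences comprised 1303 MKN74-high genes (10.5% of all genes) and 1592 AGS-high genes (12.8%). A 2-fold difference appeared in 1168 genes, 537 higher in MKN74 (4.33%) and 631 higher in AGS (5.08%). It vanished in 815 genes, 435 that had been MKN74-high (3.5%) and 380 that had been AGS-high (3.06%). It reversed in 47 genes, 30 to MKN74-high (0.242%) and 17 to AGS-high (0.137%). The other 7491 genes were under 2-fold apart in both arms. With the 1 CPM filter over all 4 libraries, which does not favour overexpression, 1092 genes appeared and 836 vanished.

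**Figure D2:**
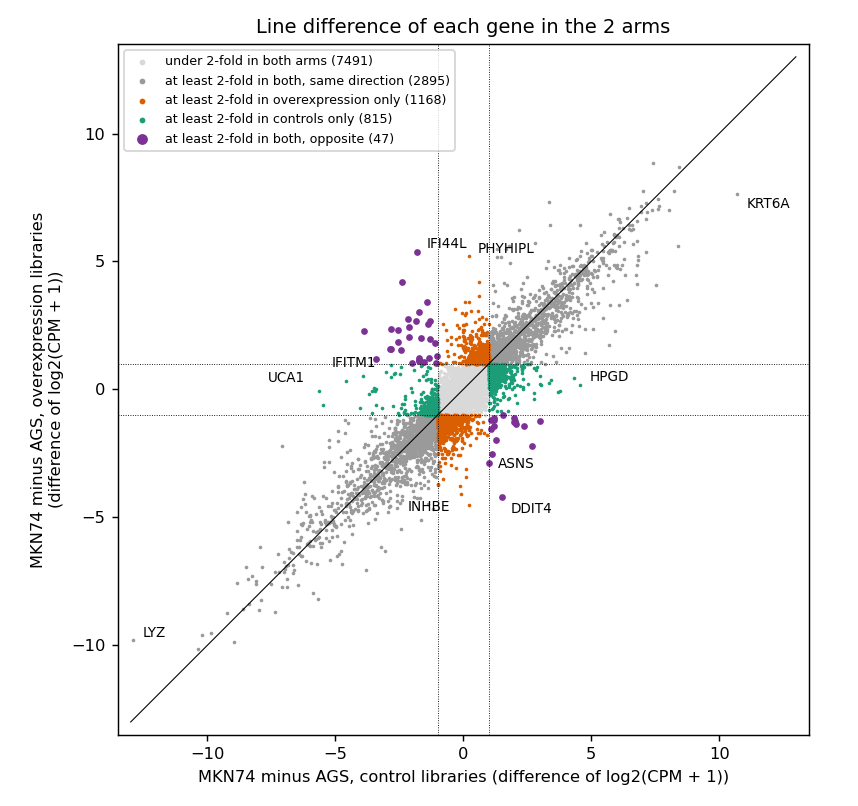
Line difference of each of the 12416 genes, MKN74 minus AGS on the log2(CPM + 1) scale, in the control libraries (x axis) and in the overexpression libraries (y axis), coloured by class with the 2-fold limits dotted. Most genes lie along the diagonal of equal differences, the 47 reversed genes lie in the upper left and lower right, and IFI44L and DDIT4 are far out on either side.

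Many genes crossed the 2-fold limit by a small step. The change of the line difference from controls to overexpression is called the shift here. The shift was at least 1 log2 unit in 333 of the 1168 appeared genes, in 212 of the 815 vanished genes and in all 47 reversed genes. Over all genes, 439 shifted by at least 1 toward MKN74 (3.54%) and 673 toward AGS (5.42%).

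The line in which the level differed from its own control was counted for each set. Of the 125 genes that appeared higher in MKN74 with a shift of at least 1, MKN74 alone differed at least 2-fold from its control in 90, AGS alone in 8, both lines in 2 and neither in 25. Of the 208 that appeared higher in AGS, AGS alone differed in 113, MKN74 alone in 27, both in 4 and neither in 64. Of the 132 vanished genes that had been MKN74-high, neither line differed 2-fold in 61, AGS alone in 49, MKN74 alone in 14 and both in 8. Of the 80 that had been AGS-high, MKN74 alone differed in 50, AGS alone in 5, both in 3 and neither in 22. In each of these 4 sets, of the lines that stood alone, the more frequent was the one whose level was higher than in its control.

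**Figure D3:**
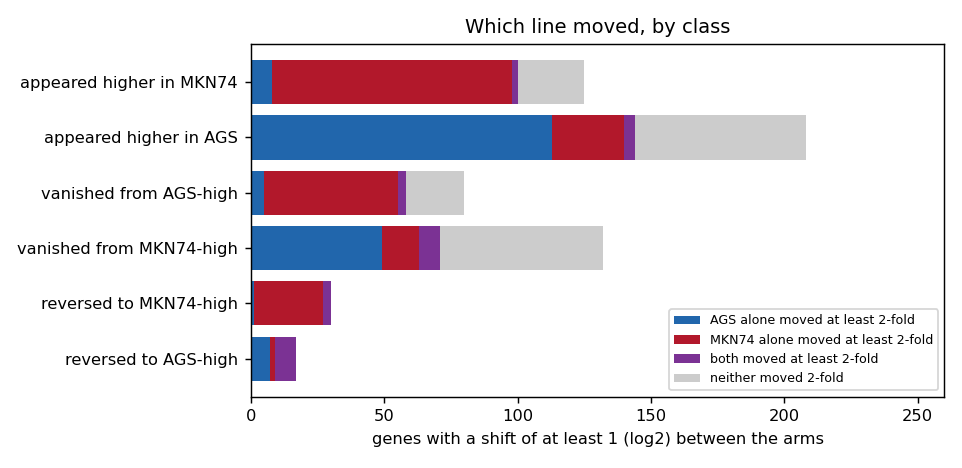
For the genes of each class with a shift of at least 1, the number in which AGS alone, MKN74 alone, both lines or neither line differed at least 2-fold between its own overexpression and control libraries. MKN74 alone is the largest share of the genes that appeared in or reversed to MKN74, with 90 of 125 and 26 of 30, and AGS alone is the largest share of those that appeared in AGS, with 113 of 208.

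The genes that reversed to MKN74-high included many of the interferon response. Of the 30 genes, 14 (46.7%) belong to the interferon or class I lists, which hold 50 of all 12416 genes (0.403%). In 26 of the 30, MKN74 alone differed at least 2-fold from its control, while the AGS libraries were less than 2-fold apart. In bulk RNA, more cells with a gene switched on and more RNA per cell cannot be told apart. The set included IFI44L, IFI44, RSAD2, OAS1, OAS2, OAS3, IFIT1, IFIT3, IFIT5, IFI6, IFI27, BST2, CMPK2, XAF1, IFI16, SAMHD1, the PARP genes PARP9, PARP10, PARP12 and PARP14, and the helix-loop-helix inhibitors ID2 and ID3.

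IFI44L, an interferon-induced gene of antiviral defence, was at 3.29 CPM in the AGS control, 4.60 in AGS ONECUT2, 0.239 in the MKN74 control and 232 in MKN74 ONECUT2. In the controls AGS stood 13.8-fold above MKN74 (95% interval of counting error alone, exact Clopper-Pearson on the reads, 7.25 to 29.3). In overexpression MKN74 stood 50.3-fold above AGS (43.7 to 58.2), and the shift of 7.17 log2 units went with the MKN74 ONECUT2 library alone. OAS2, an enzyme that makes the oligoadenylate activator of RNase L, was at 21.7, 27.8, 0.550 and 139 CPM in the same order of libraries. The line difference of OAS2 went from -3.87 to 2.29. IFIT1, which binds viral RNA that lacks a full cap, was at 94.3, 105, 20.0 and 715 CPM, and its line difference went from -2.18 to 2.76. In all 3 genes the AGS libraries lay between the low MKN74 control and the high MKN74 ONECUT2 library.

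IFI44, a relative of IFI44L, was at 11.8, 10.8, 1.44 and 219 CPM, with line differences of -2.39 and 4.22. OAS1, a second oligoadenylate synthetase, was at 42.8, 46.5, 5.12 and 245 CPM, with line differences of -2.84 and 2.37. ID2 and ID3, which block basic helix-loop-helix factors and are targets of BMP signalling, had another pattern, since both lines were involved. ID2 was at 107 CPM in the AGS control and 33.5 in AGS ONECUT2, and at 28.8 in the MKN74 control and 221 in MKN74 ONECUT2. ID3 was at 72.6 and 12.8 CPM in AGS and at 28.9 and 87.7 CPM in MKN74. In both genes the overexpression library was the lower one in AGS and the higher one in MKN74.

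The upstream sequences of 4 genes whose AGS excess reversed or vanished are shown because they carry the letters of the interferon element. They are the 250 bases before the annotated start, from RefSeq on GRCh38.p14, 5′ to 3′ on the strand of the gene: IFI44L at chr1:78620198-78620447 (+), IFIT1 at chr10:89392373-89392622 (+), IFITM1 at chr11:313790-314039 (+) and LGALS3BP at chr17:78979924-78980173 (-). Capitals mark each match to GAAANNGAAA, the core of the interferon-stimulated response element, on either strand.
IFI44L: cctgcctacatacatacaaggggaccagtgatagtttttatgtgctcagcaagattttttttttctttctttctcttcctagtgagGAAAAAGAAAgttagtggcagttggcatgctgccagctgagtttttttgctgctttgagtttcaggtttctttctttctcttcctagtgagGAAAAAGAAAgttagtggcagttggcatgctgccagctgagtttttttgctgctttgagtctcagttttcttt
IFIT1: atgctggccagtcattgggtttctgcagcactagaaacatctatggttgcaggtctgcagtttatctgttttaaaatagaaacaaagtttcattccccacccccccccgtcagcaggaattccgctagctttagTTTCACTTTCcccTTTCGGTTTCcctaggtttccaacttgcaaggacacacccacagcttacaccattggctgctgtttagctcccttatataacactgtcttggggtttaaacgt
IFITM1: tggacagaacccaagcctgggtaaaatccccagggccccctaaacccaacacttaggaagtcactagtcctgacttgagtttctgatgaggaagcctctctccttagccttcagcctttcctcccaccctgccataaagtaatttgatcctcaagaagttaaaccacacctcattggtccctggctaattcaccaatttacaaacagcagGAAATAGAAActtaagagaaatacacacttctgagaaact
LGALS3BP: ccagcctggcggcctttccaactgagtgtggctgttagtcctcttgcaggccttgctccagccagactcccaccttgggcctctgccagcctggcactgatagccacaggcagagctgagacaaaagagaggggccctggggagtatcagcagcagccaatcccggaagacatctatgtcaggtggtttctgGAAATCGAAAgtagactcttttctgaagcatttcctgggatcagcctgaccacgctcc
IFI44L and IFIT1 each hold 2 matches, and IFITM1 and LGALS3BP hold 1 each.

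A promoter was matched by symbol for 10008 of the 12416 genes, and the letters GAAANNGAAA were searched on both strands from 250 bases before to 50 after the start. They were found in 14 of the 26 matched genes reversed to MKN74-high (53.8%). The share was 6.23% (19 of 305) among all genes that vanished from AGS-high and 23.4% (15 of 64) among those with a shift of at least 1. Among genes that appeared higher in MKN74 it was 3.77% (16 of 424). It was 2.71% of all matched genes and 3.65% of all 27305 promoters of the table. Among genes shifted toward MKN74 the share was 13.1% (44 of 337), and among those shifted toward AGS 2.82% (14 of 496). A match describes the letters in this window and shows no binding.

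The genes that reversed to AGS-high were mixed. Of the 17, 3 (17.6%) are members of the amino acid stress and unfolded protein response list, against 0.25% of all genes, and 2 (11.8%) of the squamous or kallikrein lists, against 0.403%. The whole set was S100P, ASNS, SLC6A9, TGM2, DDIT4, BLACAT1, MSLN, SLC7A11, IL20RB, KLK6, MGLL, PRF1, ADIRF, SCEL, ECM1, GJB2 and KRT13. AGS alone differed at least 2-fold from its control in 7 of them. Both lines did so in opposite directions in 8, and MKN74 alone in the other 2.

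DDIT4 (REDD1), a stress-induced inhibitor of mTORC1, was at 13.2 CPM in the AGS control, 528 in AGS ONECUT2, 39.5 in the MKN74 control and 27.9 in MKN74 ONECUT2. MKN74 stood 3.0-fold above AGS in the controls (counting interval 2.72 to 3.31), and AGS stood 18.9-fold above MKN74 in overexpression (17.9 to 20.0). ASNS, asparagine synthetase, was at 37.0, 609.7, 75.5 and 82.4 CPM in the same order, and its line difference went from 1.01 to -2.87. For DDIT4 and ASNS the AGS ONECUT2 library alone stood far from the other libraries. SLC7A11, the cystine importer of system xc-, was at 20.2, 148, 110 and 54.2 CPM, so it was higher in the AGS overexpression library and lower in that of MKN74.

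S100P, a calcium-binding protein made by many epithelial tumours, was at 8.63 CPM in the AGS control, 295 in AGS ONECUT2, 76.1 in the MKN74 control and 124 in MKN74 ONECUT2. Its line difference went from 3.0 to -1.25. PRF1, which encodes perforin, was at 2.39, 33.1, 20.9 and 6.33 CPM. Perforin is best known from killer lymphocytes, and the other killer cell markers looked for were not among the rows analysed here. KRT13, a keratin of stratified mucosa, was at 13, 35.2, 29.3 and 5.37 CPM. KLK6, a secreted kallikrein protease, was at 42.6, 110, 101 and 40.5 CPM. In PRF1, KRT13 and KLK6 the levels crossed: the AGS ONECUT2 library was above the MKN74 control, and the MKN74 ONECUT2 library was below the AGS control in KRT13 and KLK6, though not in PRF1.

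The upstream sequences of ASNS, which reversed, and of CHAC1, whose difference appeared, are shown for the letters of the amino acid response element. They are again the 250 bases before the start, RefSeq on GRCh38.p14, on the strand of the gene: ASNS at chr7:97872409-97872658 (-) and CHAC1 at chr15:40953221-40953470 (+). Capitals mark the match to TGATGNAA on either strand.
ASNS: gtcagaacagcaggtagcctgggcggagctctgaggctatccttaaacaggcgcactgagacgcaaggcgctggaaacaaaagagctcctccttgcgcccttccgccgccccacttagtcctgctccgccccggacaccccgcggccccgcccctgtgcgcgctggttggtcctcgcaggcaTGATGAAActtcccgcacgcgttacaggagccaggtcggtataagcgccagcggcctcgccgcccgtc
CHAC1: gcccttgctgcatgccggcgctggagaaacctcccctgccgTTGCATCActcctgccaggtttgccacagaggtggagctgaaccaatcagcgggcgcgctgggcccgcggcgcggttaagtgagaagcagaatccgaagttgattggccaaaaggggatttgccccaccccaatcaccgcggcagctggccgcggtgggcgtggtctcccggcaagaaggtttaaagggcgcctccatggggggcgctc
TGATGNAA was found in 4 of the 11 matched genes reversed to AGS-high (36.4%) and in 20 of 501 that appeared higher in AGS (3.99%). Besides ASNS, the reversed genes with a match include S100P and KLK6, which are not members of the amino acid stress list. TGATGNAA was found in 1.57% of all matched genes and 3.67% of all promoters of the table. Among genes shifted toward AGS the share was 4.64% (23 of 496), and among those shifted toward MKN74 1.19% (4 of 337).

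The only core of the ONECUT site that was searched, ATCGAT, was rare everywhere. It was found in 0.819% of matched genes, in 1.19% of those shifted toward MKN74 (4 genes) and in 0.605% of those shifted toward AGS (3 genes), and in none of the reversed genes with a promoter. The AP-1 site TGANTCA was found in 4.66% of matched genes, in 6.82% of those shifted toward MKN74 and in 8.87% of those shifted toward AGS. No motif of the 4 was searched outside this window.

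Where an AGS-high difference vanished, the leading genes were higher in MKN74 ONECUT2 and came near the level of AGS. Members of the interferon or class I lists made up 8 of the 380 genes (2.11%), against 0.403% of all genes. UCA1, a long noncoding RNA first described in bladder cancer, was at 119 CPM in the AGS control, 60.7 in AGS ONECUT2, 1.39 in the MKN74 control and 57.4 in MKN74 ONECUT2. AGS stood 86.0-fold above MKN74 in the controls (66.4 to 113) and 1.06-fold in overexpression (1.00 to 1.12). The MKN74 control was the low library, and the overexpression libraries were nearly level.

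IFITM1, a membrane protein that restricts virus entry, was at 212, 324, 7.97 and 406 CPM in the same order. Its near-identical paralogs make the division of reads among the IFITM genes uncertain. LGALS3BP, a secreted glycoprotein that binds galectin-3, was at 320.2, 397, 6.27 and 261 CPM, and its line difference went from -5.47 to -0.60. In both genes too the MKN74 control stood alone at the bottom.

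ACSL5, which activates long-chain fatty acids by joining them to coenzyme A, was at 8.92 CPM in the AGS control, 45.9 in AGS ONECUT2, 0.550 in the MKN74 control and 71.9 in MKN74 ONECUT2. Its overexpression level was above the control level in both lines, by a larger step in MKN74, and the line difference went from -2.68 to 0.64. APOL1, an interferon-inducible apolipoprotein, was at 13.2, 25.6, 0.766 and 42.1 CPM. FAS, a death receptor, was at 14.7, 18.8, 1.41 and 29.1 CPM. THBS1, the matrix protein thrombospondin 1, differed from these, at 107 and 24.9 CPM in AGS and 14.2 and 48.4 CPM in MKN74, so the lines differed from their controls in opposite directions and were under 2-fold apart in overexpression.

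Among the differences that vanished from MKN74-high, the leading genes HPGD, EMP1 and LY6G6C met in between. Squamous and kallikrein list members made up 10 of these 435 genes (2.3%), against 0.403% of all genes. HPGD, which inactivates prostaglandin E2, was at 20.8 CPM in the AGS control, 86.5 in AGS ONECUT2, 518 in the MKN74 control and 98.0 in MKN74 ONECUT2. MKN74 stood 24.9-fold above AGS in the controls (23.3 to 26.7) and 1.13-fold in overexpression (1.08 to 1.18). EMP1, an epithelial membrane protein, was at 19.8, 82.6, 421 and 113 CPM. HPGD and EMP1 were each higher in the AGS overexpression library than in its control and lower in that of MKN74.

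KLK8 and KLK10 are secreted proteases of the kallikrein cluster. KLK8 was at 4.39, 18.9, 56.4 and 24.9 CPM, and KLK10 at 2.0, 4.14, 29.5 and 5.15 CPM. KRT6B, a keratin of activated squamous epithelium whose reads can be shared with KRT6A, was at 1.88, 3.82, 8.68 and 1.7 CPM. In CPM, AGS stood 2.24-fold above MKN74 for KRT6B in overexpression (counting interval 1.7 to 3.0). On the log2(CPM + 1) scale that difference was -0.83, under the limit, so KRT6B counts as vanished and not as reversed. LY6G6C, a small surface protein, was at 1.46, 10.9, 33.1 and 10.3 CPM, with both lines differing at least 2-fold from their controls.

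**Figure D4:**
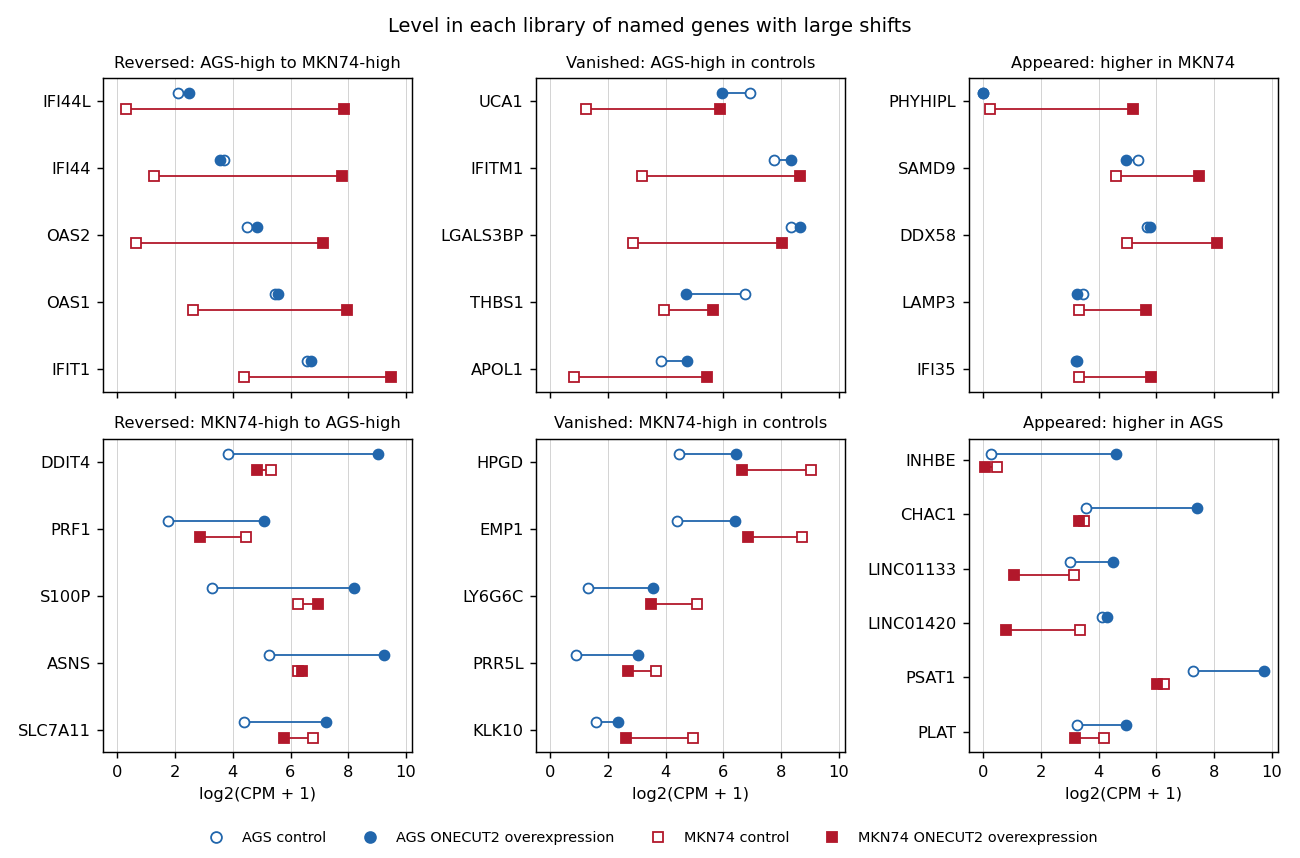
Levels of selected genes in each of the 4 libraries, on the log2(CPM + 1) scale (1 library per point, no error bars), for named genes with large shifts among those that reversed, vanished or appeared. IFI44L stands out in MKN74 ONECUT2 at 232 CPM, DDIT4 in AGS ONECUT2 at 528 CPM, and HPGD shows the overexpression libraries close together at 86.5 and 98.0 CPM.

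Line differences that appeared toward MKN74 were led by PHYHIPL and by further interferon genes. PHYHIPL, a relative of the phytanoyl-CoA hydroxylase interacting protein, had 0 reads in both AGS libraries, 0.167 CPM in the MKN74 control and 35.8 CPM in MKN74 ONECUT2. Against the limit of 3 reads that a count of 0 allows in a library, PHYHIPL was at least 516-fold higher in MKN74 in overexpression. DDX58, which encodes the RNA sensor RIG-I, was at 49.8 CPM in the AGS control, 54.6 in AGS ONECUT2, 30.5 in the MKN74 control and 277 in MKN74 ONECUT2. SAMD9, an antiviral factor, was at 40.5, 29.7, 23.1 and 179 CPM. In both DDX58 and SAMD9 the MKN74 ONECUT2 library was above the other 3, which lay within a narrow range.

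Of the 24 cholesterol synthesis genes, 6 appeared higher in MKN74, 1 appeared higher in AGS and 12 were under 2-fold apart in both arms. Over all genes, 4.33% appeared higher in MKN74 and 5.08% in AGS. ACAT2, which condenses acetyl-CoA units, was at 29.5 CPM in the AGS control, 11.1 in AGS ONECUT2, 53.5 in the MKN74 control and 51.7 in MKN74 ONECUT2. HMGCS1, which makes HMG-CoA, was at 95.5, 55.4, 85.4 and 134 CPM. For ACAT2 only the AGS ONECUT2 library stood apart from its control, and for HMGCS1 the lines differed in opposite directions by less than 2-fold each.

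Line differences that appeared toward AGS were led by genes of the amino acid stress response. INHBE, an inhibin beta subunit known as an ATF4 pathway target, was at 0.195 CPM in the AGS control, 23.2 in AGS ONECUT2, 0.383 in the MKN74 control and 0.0436 in MKN74 ONECUT2. The last value rests on 2 reads, and the ratio of AGS to MKN74 of 532 had a counting interval of 147 to 4396. CHAC1, which degrades glutathione, was at 10.9, 170.3, 10.2 and 8.99 CPM. PSAT1, an enzyme of serine synthesis, was at 152, 845, 76.2 and 63.3 CPM, and its line difference of -0.99 in the controls was just under the limit and became -3.72. In all 3 genes AGS ONECUT2 was the library that stood apart.

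REG3A, a secreted lectin of the gut with close relatives in the REG family, had 0 reads in both MKN74 libraries and was at 0.0975 CPM in the AGS control and 12.8 CPM in AGS ONECUT2. PHLDA1, a pleckstrin homology-like protein, was at 101, 259, 72.5 and 32.4 CPM. LINC01133, a long noncoding RNA, was at 7.14, 21.5, 7.85 and 1.11 CPM. PLAT, tissue plasminogen activator, was at 8.53, 30.2, 17.0 and 8.14 CPM, and COL6A1, a collagen VI chain, at 103, 205, 67.8 and 38.1 CPM. PHLDA1 and LINC01133 were higher in the AGS overexpression library and lower in that of MKN74, each by at least 2-fold.

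The AGS-high genes named next were picked from the kept class for a large line difference in both arms. Several were at the edge of detection in MKN74. LYZ was at 7661 CPM in the AGS control and 7066 in AGS ONECUT2, with 0 reads in the MKN74 control and 6.89 CPM in MKN74 ONECUT2. CTSE, the gastric aspartic protease cathepsin E, was at 1394, 1433, 0.0478 and 0.262 CPM. LDHB, a lactate dehydrogenase subunit, was at 1113, 758, 0.215 and 0.0436 CPM. PAGE4, a cancer-testis antigen, was at 1239.9, 828, 0.0478 and 0.0654 CPM. PLA2G2A, a secreted phospholipase, was at 494 and 932 CPM in AGS with 0 reads in both MKN74 libraries. The separation of these 5 genes in both arms follows from that choice.

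Kept MKN74-high genes were picked in the same way, so their separation in both arms also follows from the choice. On the MKN74 side, BMP7, a bone morphogenetic protein, was at 0.171 and 0.370 CPM in AGS and at 403 and 563 CPM in MKN74. RDX, the membrane-to-actin linker radixin, had 0 reads in both AGS libraries and was at 298 and 214 CPM in MKN74, at least 4071-fold higher in the controls and 3088-fold in overexpression. KRT6A, a keratin of activated squamous epithelium, was at 1.56 and 6.52 CPM in AGS and at 4291 and 1495 CPM in MKN74. The line difference of KRT6A was therefore kept but smaller, 10.71 in the controls and 7.64 in overexpression. KRT5, a basal keratin, was at 0 and 0.0462 CPM in AGS and at 169 and 475 CPM in MKN74.

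Carry-over of material between the lines' libraries was not tested. PLA2G2A and REG4 had 0 reads in both MKN74 libraries, and RDX, MAGEA1 and MAGEB2 had 0 reads in both AGS libraries, although reads of the MAGE genes can be shared among close relatives. LYZ, abundant in AGS, was at 6.89 CPM in MKN74 ONECUT2 against 0 in its control. GATA6, a gut transcription factor, was at 1.7 CPM in MKN74 ONECUT2 against 0.167 CPM in its control, with 106 and 73.8 CPM in AGS.

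Among the lists with at least 9 measured genes, the median line difference changed most in the interferon response list. Its 35 measured genes had a median line difference of -1.73 in the controls and 2.04 in overexpression, beside 0.02 in both arms over all 12416 genes. AGS-high members numbered 22 in the controls and 2 in overexpression, beside 16.1% and 18% of all genes. MKN74-high members numbered 2 and 24, beside 14.1% and 15.1%. Of the 35, 14 reversed to MKN74-high, 8 appeared higher in MKN74, 6 vanished from AGS-high, and 32 shifted by at least 1 toward MKN74. The shares of all genes were 0.242%, 4.33%, 3.06% and 3.54%. The list's median change was 3.48 log2 units in MKN74 and 0.15 in AGS. The list's median absolute line difference was 1.94 in the controls and 2.29 in overexpression, so its members were not more alike between the lines.

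In the class I antigen presentation list the lines were closer in overexpression. Its 15 genes were AGS-high in 12 cases in the controls and 10 in overexpression, beside 16.1% and 18% of all genes. The AGS-high difference was kept in 10 of the 15. The median went from -2.06 to -1.06, and 12 of 15 had a smaller absolute difference, beside 46.1% of all genes. B2M, the light chain of class I molecules, was at 915 CPM in the AGS control, 1071 in AGS ONECUT2, 219 in the MKN74 control and 488 in MKN74 ONECUT2. TAP1, a subunit of the peptide transporter, was at 42.2, 44.0, 4.23 and 20.6 CPM. NLRC5, the activator of class I genes, was at 24.4, 18.7, 0.191 and 2.86 CPM. All 3 were still higher in AGS in overexpression, TAP1 by 1.06 log2 units, a value that was 0.96 when the libraries were shifted to a common median.

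**Figure D5:**
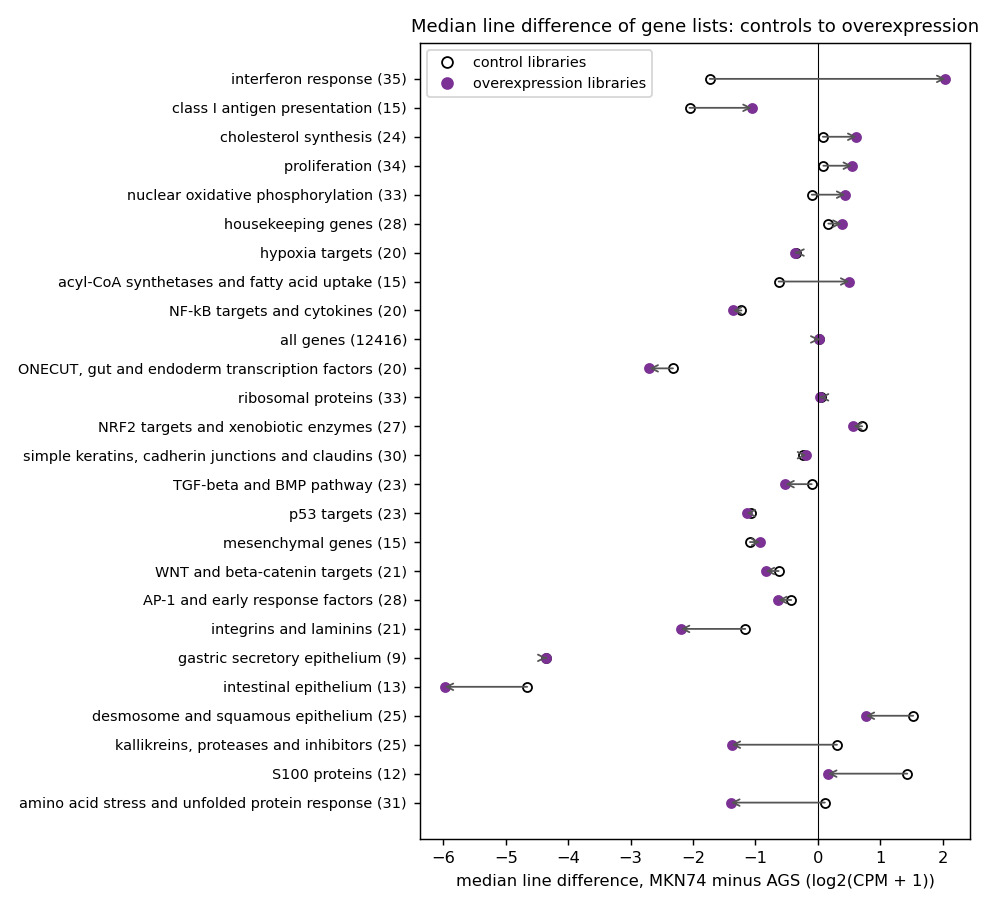
Median line difference, MKN74 minus AGS on the log2(CPM + 1) scale, of each gene list with at least 9 measured genes (number in brackets), in the controls (open circle) and in overexpression (filled circle). The interferon list crosses from -1.73 to 2.04, the amino acid stress list goes from 0.11 to -1.39, and all genes stay at 0.02.

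The amino acid stress and unfolded protein response list diverged toward AGS. Of its 31 measured genes, AGS-high members numbered 4 in the controls and 18 in overexpression, beside 16.1% and 18% of all genes. In the list, 12 appeared in AGS, 3 reversed to AGS-high and 20 shifted by at least 1 toward AGS. The shares of all genes were 5.08%, 0.137% and 5.42%. The list's median line difference went from 0.11 to -1.39, and its median change was 1.38 in AGS and 0.10 in MKN74. SESN2, a stress-induced regulator of mTORC1, was at 22.2, 63.5, 9.07 and 12.3 CPM. GDF15, a stress cytokine of the p53 and TGF-beta lists, was at 132 and 562 CPM in AGS and at 5.5 and 75.1 CPM in MKN74, higher in overexpression in both lines, and its AGS excess narrowed from 4.35 to 2.89 log2 units.

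Squamous and S100 lists had a smaller median MKN74 excess in overexpression, and the kallikrein and protease list had a median on the AGS side. In the desmosome and squamous list the median went from 1.53 to 0.77, and 20 of 25 genes had a smaller absolute difference in overexpression. Over all genes that share was 46.1%. DSG3, a desmosomal cadherin, was at 0.0244 and 0.0694 CPM in AGS and at 68.7 and 9.55 CPM in MKN74. Among S100 proteins the median of 12 genes went from 1.43 to 0.16. The absolute line difference was smaller in overexpression in 6 of these genes and larger in 6, so the list did not narrow as one. S100A9, a calprotectin subunit, was at 0.293, 5.78, 143 and 117 CPM, and its MKN74 excess narrowed. S100A6 diverged, at 1923, 2436, 350 and 54.6 CPM in the same order, and its line difference went from -2.45 to -5.45. Kallikreins, proteases and inhibitors went from 9 MKN74-high genes of 25 to 1, and from 9 AGS-high genes to 14, with 7 vanished from MKN74-high. Over all genes the MKN74-high shares were 14.1% and 15.1% and the AGS-high shares 16.1% and 18%. The share vanished from MKN74-high was 3.5%. The median of the kallikrein and protease list went from 0.31 to -1.38.

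Of 21 integrins and laminins, 16 were AGS-high in overexpression and 12 in the controls, beside 18% and 16.1% of all genes. The absolute line difference was smaller in overexpression in 11 of them and larger in 10. ITGA3, a laminin-binding integrin subunit, was at 125 CPM in the AGS control, 408 in AGS ONECUT2, 55.3 in the MKN74 control and 57.6 in MKN74 ONECUT2. ITGA6, another laminin-binding subunit, was at 454, 698, 210.1 and 115 CPM. The intestinal list was AGS-high in both arms, 9 of 13 genes in the controls and 10 in overexpression, beside 16.1% and 18% of all genes. CEACAM5, a cell surface glycoprotein whose reads can be shared with its relatives, was at 14, 131, 0.0718 and 0 CPM. The gastric secretory list changed little, with a median of -4.36 and -4.35 over 9 genes.

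Smaller differences toward MKN74 were found in lists of growth and metabolism. Proliferation genes had a median line difference of 0.09 in the controls and 0.55 in overexpression, and none shifted by 1 log2 unit. Of 34, 7 were MKN74-high in overexpression and 1 in the controls, beside 15.1% and 14.1% of all genes, so the overexpression count was near the share of all genes. KIF20A, a mitotic kinesin, was at 116 and 64.2 CPM in AGS and at 100.3 and 92.0 CPM in MKN74. Cholesterol synthesis had 3 MKN74-high genes of 24 in the controls and 9 in overexpression, beside the same shares. Nuclear genes of oxidative phosphorylation went from a median of -0.10 to 0.44 over 33 genes. The median change in AGS was negative for all 3 lists, -0.54, -0.34 and -0.42, and housekeeping genes had a median change of -0.17 in AGS.

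Acyl-CoA synthetases and fatty acid uptake genes, the group of ACSL5, did not move as one. The median line difference of 15 genes went from -0.63 to 0.50, but the median shift was 0.11. In this list 2 genes shifted by at least 1 toward MKN74 and 1 toward AGS, beside 3.54% and 5.42% of all genes. ACSM3, a medium-chain acyl-CoA synthetase, was at 2.46, 3.91, 0.407 and 7.85 CPM. SLC27A1, a fatty acid transporter, was at 4.71, 20.1, 2.42 and 3.34 CPM, its line difference appearing toward AGS. Removing the interferon and class I lists left 4072 genes apart in overexpression and 3720 in controls, and removing the amino acid stress list left 4089 and 3744.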

How the data were processed

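The 4 RNA libraries come from AGS and MKN74, each with 1 control and 1 ONECUT2 library; the series' ChIP samples were not used here. The authors deposited 1 table of log2(CPM + 1) values per gene, by its values. Per the submitters' processing notes, the tools include STAR 2.5.1, edgeR 3.12.1, CASAVA 1.7, HOMER 4.9.1 and Bowtie2 2.1.0, with build hg19. The sources used here do not give the counter, annotation or strand setting, so antisense and overlapping genes cannot be told apart. CPM steps returned whole reads. The listed rows hold 83.1% to 88.1% of the library size those steps imply, and 18 rows whose symbols had become dates were left out. Line differences were counted with Python 3.11.15, numpy 2.4.6, pandas 2.3.3 and scipy 1.17.1 at 2-fold, with no test, since each group has 1 library. Intervals (95%, Clopper-Pearson) cover counting error only.

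The text names ONECUT2, ACSL5 and up to 4 genes of each of 29 lists. It also names the appeared, vanished and reversed genes with the largest shift among those averaging 5 CPM or more in all 4 libraries together. Kept genes at that CPM level were ranked by the smaller of their absolute line differences in the arms. The remaining reversed genes, and those named as at 0 reads, were named after their values were seen. The members and lists were chosen with earlier results of these data known. RefSeq promoters (GRCh38.p14) supplied sequences only. Other pseudocounts, filters, fold sizes, scalings and gene sets were tried. Some genes that this rule names are not reported here. Scripts were tested on simulated data.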

Additional observations from a re-analysis of the deposited data

Results flagged for a closer look

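In 15 named genes the 2 lines differed at least 2-fold from their own controls in opposite directions. With 1 library per group, the difference between the lines was not tested. The genes higher in AGS ONECUT2 and lower in MKN74 ONECUT2, with their shifts of the line difference in log2 units, were PRF1 (-4.91), HPGD (-4.40), EMP1 (-3.89), LY6G6C (-3.86), SLC7A11 (-3.83), KRT13 (-3.63), LINC01133 (-3.53), ABCC3 (-3.52), KRT6A (-3.08), KLK8 (-3.03), KLK6 (-2.64) and PHLDA1 (-2.49). ABCC3, an exporter of conjugated organic anions, was at 37.5, 131, 16.1 and 4.14 CPM in the AGS control, AGS ONECUT2, MKN74 control and MKN74 ONECUT2. The genes lower in AGS ONECUT2 and higher in MKN74 ONECUT2 were ID2 (4.55), ID3 (3.98) and THBS1 (3.77). Over all 12416 genes, 32 moved in opposite directions by at least 2-fold in each line, 26 of them higher in AGS ONECUT2.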

How the results depend on the processing

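No paired analysis was possible because each group has 1 library and no test was made. In every setting run, more genes were apart in overexpression than in controls and r was lower. At 1.5-fold, 6774 genes (3320 MKN74-high, 3454 AGS-high) were apart in overexpression and 6327 (3082 and 3245) in controls, with 1233 vanished, 110 reversed and 4984 kept. At 4-fold the counts were 1642 (733 and 909) and 1537 (735 and 802), with 415 appeared, 310 vanished, 8 reversed and 1219 kept. With a shift of at least 1 also required, 333 appeared and 212 vanished. The difference of the standard deviations, overexpression minus control, was 0.00845; it was 0.0138 with a pseudocount of 2, 0.00333 without a filter, 0.0388 after quantile normalization and 0.0196 with CPM over the listed rows. It turned negative with a pseudocount of 0.1 (-0.0175) and with the 1 CPM filter over 4 libraries (-0.00149); the cause was not tested. The difference in r, -0.0247, was -0.0393 at 5 CPM or more and -0.0158 after quantile normalization, and that in rho was -0.0313 at 5 CPM or more. The difference in median absolute line difference was 0.0872 after quantile normalization. With a pseudocount of 0.1, 654 genes had a line difference smaller by at least 1. List medians were recomputed with alternatives chosen after seeing the data; of them, immune markers (3 genes) reversed, to a median shift of -0.146 with a pseudocount of 0.1. Of 1380 recomputed values of named genes, 1352 stayed on their side of 2-fold, 17 passed it, 11 no longer did and none changed sign. Depth limits genes near 3 reads, which is 0.0654 to 0.0731 CPM.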
